A study of Mus musculus with 16 samples.

Results

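The pentose phosphate pathway enzymes described here were the 8 genes G6pdx, H6pd, Pgls, Pgd, Rpia, Rpe, Tkt and Taldo1. They were found by gene symbol among the 40840 symbols of the raw count table, and all 8 passed the low count filter that left 14484 genes for testing. Liver RNA came from 16 libraries in 4 groups of 4, from wild-type (WT) mice and from mice labelled as lacking both cryptochromes, Cry1 and Cry2 (CryDKO), whose proteins repress the circadian clock. All mice were males of the C57BL/6J background, aged 12 to 16 weeks and kept in constant darkness, and every group had received oxaliplatin, a DNA-crosslinking platinum drug, at 12 mg/kg by intraperitoneal injection at circadian time 8 (CT8) or 16 (CT16). The labels speak of dosing on 3 days, while the series text also speaks of a single dose. The interval before the liver was taken was not given, and untreated mice were not analysed here. The labels do not state that replicates were separate animals, so the p-values measured the spread between these libraries, which may be technical.

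The pathway splits glucose 6-phosphate away from glycolysis. Its oxidative branch makes NADPH, the reducing power for fat synthesis and for glutathione, and ends in ribulose 5-phosphate. Its non-oxidative branch interconverts sugar phosphates, so that ribose can be made for nucleotides or carbon returned to glycolysis. In the cytosol, glucose 6-phosphate dehydrogenase (G6pdx) takes the first and rate-limiting step, 6-phosphogluconolactonase (Pgls) opens the lactone, and 6-phosphogluconate dehydrogenase (Pgd) makes the other NADPH. H6pd is a separate dehydrogenase in the lumen of the endoplasmic reticulum, where it feeds NADPH to the glucocorticoid-activating enzyme Hsd11b1. Ribose 5-phosphate isomerase (Rpia) and ribulose phosphate epimerase (Rpe) sort the pentoses, and transketolase (Tkt) and transaldolase (Taldo1) exchange carbon units between sugars. In mouse cells G6pdx, Pgd, Tkt and Taldo1 are known targets of the oxidative stress factor NRF2, encoded by Nfe2l2.

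Promoter windows were taken from RefSeq for GRCm38.p6, each with 250 bases before and 50 bases after an annotated start. All 8 members matched, with 9 windows in all because Pgd has 2. Both strands were searched for the core of the antioxidant response element, TGACNNNGC, which NRF2 binds, for the E-box CACGTG and the D-box TTATGTAA of clock output factors, and for the sterol element TCACCCCAC. No matches in the member windows overlapped. The windows below are printed 5′ to 3′ on the strand of the gene, with a motif match in capitals. G6pdx, H6pd and the more downstream Pgd window are shown because they held a match. Tkt is shown as a member called higher in CryDKO at both dosing times, and Rpe because it moved the other way at CT8. Pgls was also called higher at both times, but its window held no match and is not printed.
G6pdx, chrX:74428831-74429130, minus strand: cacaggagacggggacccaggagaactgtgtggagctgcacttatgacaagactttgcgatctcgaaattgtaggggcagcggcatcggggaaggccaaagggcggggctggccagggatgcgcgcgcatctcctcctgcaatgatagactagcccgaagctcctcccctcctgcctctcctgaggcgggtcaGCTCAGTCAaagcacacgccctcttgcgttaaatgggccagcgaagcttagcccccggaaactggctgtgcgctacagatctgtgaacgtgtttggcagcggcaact
Pgd, chr4:149166033-149166332, minus strand: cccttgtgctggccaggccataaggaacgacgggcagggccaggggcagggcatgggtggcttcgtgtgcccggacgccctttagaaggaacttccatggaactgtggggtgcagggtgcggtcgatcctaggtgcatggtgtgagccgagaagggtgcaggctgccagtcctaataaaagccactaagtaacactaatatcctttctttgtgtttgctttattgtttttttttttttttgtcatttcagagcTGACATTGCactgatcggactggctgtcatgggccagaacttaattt
H6pd, chr4:150003187-150003486, minus strand: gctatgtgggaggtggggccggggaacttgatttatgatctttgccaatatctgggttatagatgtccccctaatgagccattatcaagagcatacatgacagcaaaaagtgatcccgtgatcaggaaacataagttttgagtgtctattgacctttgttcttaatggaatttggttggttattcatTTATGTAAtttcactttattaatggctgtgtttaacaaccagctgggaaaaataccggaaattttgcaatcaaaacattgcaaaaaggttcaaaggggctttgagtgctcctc
Tkt, chr14:30548881-30549180, plus strand: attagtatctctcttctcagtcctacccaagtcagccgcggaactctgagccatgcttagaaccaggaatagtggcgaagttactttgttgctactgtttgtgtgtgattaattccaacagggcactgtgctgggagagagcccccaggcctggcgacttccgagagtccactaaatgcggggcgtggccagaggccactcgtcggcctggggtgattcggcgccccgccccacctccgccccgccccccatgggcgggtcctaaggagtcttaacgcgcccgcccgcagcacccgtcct
Rpe, chr1:66700581-66700880, plus strand: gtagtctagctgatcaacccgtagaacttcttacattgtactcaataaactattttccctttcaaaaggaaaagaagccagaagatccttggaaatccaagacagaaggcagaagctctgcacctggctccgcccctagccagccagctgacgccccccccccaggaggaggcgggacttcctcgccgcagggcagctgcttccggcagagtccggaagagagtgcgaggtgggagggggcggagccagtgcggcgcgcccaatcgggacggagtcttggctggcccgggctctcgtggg

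The antioxidant response core was found in 2 of the 9 windows and in 12.4% of all 32851 windows of that length. In G6pdx it lay at position -57 from the start and read GCTCAGTCA, the reverse strand of the core. In Pgd it lay at position 4 past the start of the more downstream of its windows and read TGACATTGC. That RefSeq start lies inside the span that GENCODE vM21 gives for Pgd (GRCm38, chromosome 4, 149149991 to 149166771). The other Pgd window, 149166656 to 149166955, covers the end of that span where the gene begins. It held no match and is not printed. The D-box was found only in H6pd, at position -63, against 0.938% of all windows. The E-box and the sterol element were found in 0 of the 9 windows, against 7.15% and 0.551% of all. The H6pd window was AT-rich, with 39.3% GC and 3 CpG dinucleotides, while the windows of G6pdx, Tkt and Rpe had 60% to 61% GC and 17 to 20 CpG. The printed Pgd window had 51.3% GC, and the median over all windows was 52.7%. The H6pd window belongs to a RefSeq start inside the span that GENCODE vM21 gives for H6pd (GRCm38, chromosome 4, 149979475 to 150009023). A match is a description of letters, and binding was not measured.

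Library depth ranged from 18083916 to 29934138 counted reads. Levels are in CPM, the reads of a gene per 1e+06 reads of its library after TMM scaling, which corrects library sizes by a trimmed mean of log ratios. WT at CT16 library 8 stood apart from its group: its scaling factor was 1.20 against 0.921 to 0.955 in the other 3, close to the 1.13 to 1.24 of WT at CT8. In libraries labelled CryDKO, Cry2 was lower (27.7 ± 4.43 against 46.4 ± 5.43 CPM at CT8, SD, n = 4) while Cry1 was higher (24.9 against 12.2 CPM). The deleted parts of the genes were not given, so reads outside them do not test the knockout. The hepatocyte markers, 8 of 8 tested, summed to 52954 to 94296 CPM in WT and to 104512 to 159029 CPM in CryDKO. Marker lists of other cells summed, over all libraries, to at most 239.5 CPM for stellate cells and fibroblasts, 166 for macrophages, 146 for cholangiocytes, 78.7 for endothelium, 50.6 for erythroid cells, 11.1 for neutrophils and 2.38 for B, T and NK cells. Mpo and Slc4a1 were at 0 reads, while most of the erythroid sum was Alas2 (43.3 ± 3.53 CPM in WT at CT8, SD, n = 4). In bulk liver, fewer cells of a type and less RNA per cell cannot be told apart.

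Per kilobase of annotated exon (GENCODE vM21, union of exons), H6pd was the most abundant member, with a median of 81.6 CPM per kb over the 16 libraries. Taldo1 followed at 45.4, Pgls at 20.3, Tkt at 14.5, Rpe at 6.75 and Pgd at 5.78 CPM per kb. G6pdx and Rpia were scarce, at 0.795 and 0.709 CPM per kb. With the longest transcript as the length, the neighbours Tkt and Pgls, Pgd and Rpe, and G6pdx and Rpia changed places, so their order depended on the length used. The ER enzyme H6pd alone held 42.8% to 65.6% of the members' summed CPM in a library, and G6pdx held 0.216% to 1.06%. G6pdx rested on 41 to 194 reads and Rpia on 34 to 124 reads per library, so both were measured less precisely than H6pd with 6098 to 14636 reads. The relatives G6pd2, Tktl1 and Tktl2 had 0 reads in all 16 libraries, which allows up to 0.176 CPM in the shallowest (3 reads, counting error only). The sources used here do not say how reads shared between near-identical copies were counted.

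**Figure D1:**
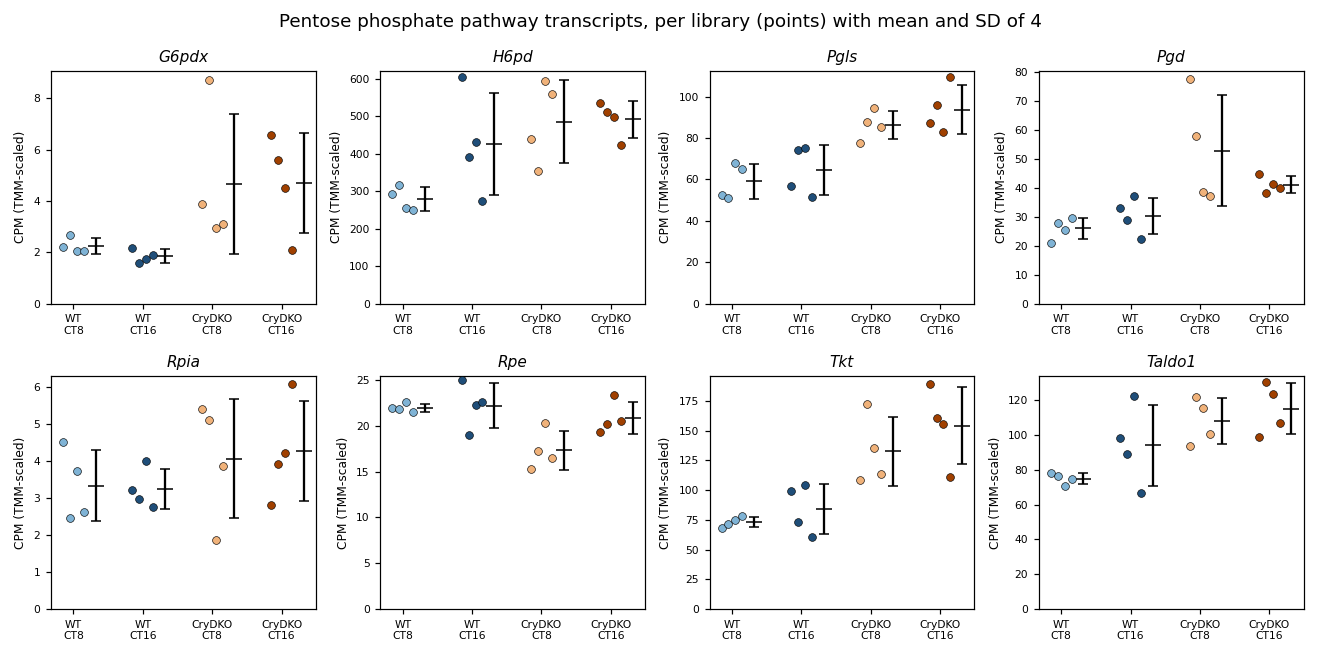
Level of each pathway member in every library, in TMM-scaled CPM, with the mean and SD of 4 libraries beside the points. Pgls, Pgd and Tkt stood higher in all 8 CryDKO libraries than in all 8 WT libraries, and G6pdx reached 8.72 CPM in 1 CryDKO library at CT8.

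At CT8, 6 of the 8 members were higher in CryDKO than in WT and 1 was lower, with an adjusted p under 0.05 in edgeR's quasi-likelihood test over all genes. Higher calls made up 18.7% of the 14484 genes tested and lower calls 20.3%, so a large part of the measured genes differed between these groups, 39% in either direction. The members' median log2 difference was 0.67, against -0.02 over all genes tested. The 6 were the oxidative members G6pdx, H6pd, Pgls and Pgd, with Tkt and Taldo1. In each of the 6, the lowest CryDKO library lay above the highest WT library, as in 18.7% of all genes. The member that fell was Rpe, with all of its CryDKO libraries below WT as in 20.5% of all genes, and Rpia did not pass. Markers of cell types were called at CT8 too. Of the hepatocyte markers 4 of 8 were higher in CryDKO (Alb, Apoa1, Fgb and Tat). The hepatocyte list's median log2 difference was 0.63, near the 0.67 of the members. Of the stellate cell and fibroblast markers 4 of 7 were higher (Col1a1, Col1a2, Col3a1 and Pdgfrb, list median 1.03 on the log2 scale). Of the cholangiocyte markers 2 of 5 were higher (Krt7 and Krt19, list median 0.85). Stellate cell and fibroblast sums were 95.6 to 135 CPM in WT and 119.7 to 239.5 CPM in CryDKO, and cholangiocyte sums 25.8 to 91.7 and 50.4 to 146 CPM. In the stellate cell and fibroblast list Dcn reached 3622 reads in a library, and every other marker at most 610. In the cholangiocyte list Spp1 reached 2633 reads, and every other marker at most 259. Neither Dcn nor Spp1 was called at CT8, so the sums mostly describe uncalled genes. Of the 2 erythroid markers tested, Hbb-bs was higher, on at most 15 reads in any library, and Alas2 was lower. Of the macrophage markers 0 of 9, of the endothelial 0 of 6 and of the tested neutrophil markers 0 of 4 were called. The part of these lists in the members' differences was not tested.

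G6pdx, the gate of the cytosolic branch, read 2.06, 2.06, 2.20 and 2.69 CPM in WT at CT8 and 2.93, 3.12, 3.88 and 8.72 CPM in CryDKO. The groups did not overlap, but library 10 stood far above the other 3. The log2 difference was 1.05 ± 0.34 (SE, adjusted p = 0.0202), or 2.07-fold, and without library 10 it was 0.56 (adjusted p = 0.154), so the call rested on that library. In library 10 the 7 stellate cell and fibroblast markers summed to 171 CPM and the 9 macrophage markers to 87.4 CPM, both second to library 9 in their group (239.5 and 149 CPM), and their part in the result was not tested. G6pdx shares 418 of its 3080 exon bases with Ikbkg on the other strand, which had more reads (907 to 3965) and was lower in CryDKO at CT8 by a log2 difference of -0.54 ± 0.21 (adjusted p = 0.0488). Whether reads were counted by strand was not given, so reads over the shared bases cannot be told apart.

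Pgd, the later NADPH-making step, rested on 576 to 1783 reads per library. Its level was 21.2, 25.4, 28.0 and 29.7 CPM in WT at CT8 and 37.3, 38.6, 58.1 and 77.7 CPM in CryDKO. All 4 CryDKO libraries were above WT, and libraries 9 and 10 were the high pair. The log2 difference was 1.02 ± 0.20 (adjusted p = 0.000798), or 2.03-fold. Pgls read 51.0, 52.6, 65.2 and 67.7 CPM in WT and 77.8, 85.4, 87.7 and 94.5 CPM in CryDKO. The groups of this lactonase did not overlap, and it was higher by 0.55 ± 0.15 on the log2 scale (adjusted p = 0.00762). Its exons overlap those of Niban3 on the same strand over 776 of 3770 bases, and Niban3 had 5 to 56 reads.

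H6pd read 251, 256, 293 and 317 CPM in WT at CT8 and 353, 438, 559 and 593 CPM in CryDKO. The ER dehydrogenase was higher by 0.80 ± 0.21 on the log2 scale (adjusted p = 0.00565), or 1.74-fold, with every CryDKO library above WT. Among 3 genes chosen as its ER partners, 2 were higher too. Hsd11b1, which uses the NADPH made there, stood at 332 ± 41.2 CPM in WT and 677 ± 121 CPM in CryDKO (SD, n = 4, log2 difference 1.03 ± 0.18, adjusted p = 0.000291). Slc37a4, the transporter that brings glucose 6-phosphate into the ER, rose from 160.1 ± 32.2 to 278 ± 67.4 CPM (0.80 ± 0.22, adjusted p = 0.00799).

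In the non-oxidative branch, both carbon-exchange enzymes were higher. Tkt read 68.4, 71.1, 75.1 and 78.5 CPM in WT at CT8 and 109, 114, 135 and 172 CPM in CryDKO, with no overlap. The log2 difference was 0.85 ± 0.19 (adjusted p = 0.00188), or 1.81-fold. Taldo1, its partner in carbon exchange, read 70.9, 74.5, 76.5 and 77.9 CPM in WT and 93.7, 101, 116 and 122 CPM in CryDKO. That was higher by 0.53 ± 0.16 on the log2 scale (adjusted p = 0.0140).

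Neither pentose-sorting enzyme was called higher. Rpe, the epimerase, read 21.5, 21.8, 21.9 and 22.6 CPM in WT at CT8 and 15.3, 16.5, 17.3 and 20.3 CPM in CryDKO, with every CryDKO library below WT. Its log2 difference was -0.34 ± 0.12 (adjusted p = 0.0328). The call was lost without the low count filter (-0.30, adjusted p = 0.151) and on leaving out any of WT at CT8 libraries 1, 2, 3 and 4 or CryDKO at CT8 libraries 9, 10 and 16 (log2 differences of -0.33 to -0.25, adjusted p of 0.0677 to 0.151). Rpe shares 558 of 3113 exon bases with Kansl1l on the other strand, and Kansl1l fell by 1.30 ± 0.25 on the log2 scale (adjusted p = 0.000698), and here too reads over the shared bases cannot be told apart. Rpia, the isomerase, read 2.48, 2.63, 3.73 and 4.52 CPM in WT and 1.88, 3.87, 5.12 and 5.40 CPM in CryDKO. The groups overlapped, and the difference of 0.29 ± 0.30 had an adjusted p of 0.458 and a 95% interval from -0.33 to 0.92.

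**Figure D2:**
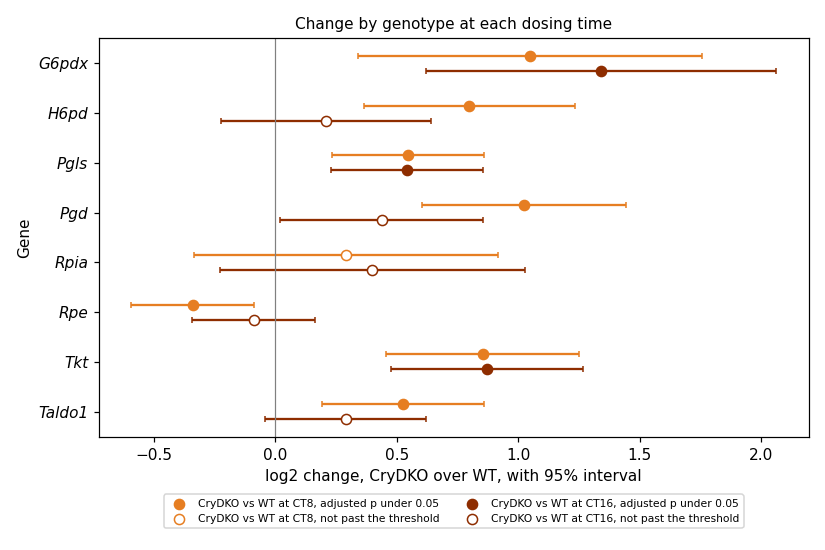
Log2 difference of CryDKO over WT for each member, with its 95% interval, at CT8 and CT16. Filled points passed the adjusted threshold of 0.05, which 7 members did at CT8 (Rpe lower) and G6pdx, Pgls and Tkt did at CT16.

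The size of these differences depended on the scaling. Libraries of WT at CT8 had the high scaling factors given above, and with library size alone the median of all genes tested moved to -0.36 at CT8, from -0.02. The higher calls then made up 15.8% of all calls, against 47.9%. On that scale Pgd (0.71, adjusted p = 0.0141), Tkt (0.51, adjusted p = 0.0335) and Rpe (-0.69, adjusted p = 0.000802) were the members past the threshold, and G6pdx, H6pd, Pgls and Taldo1 were positive but not past it. Relative to the shifted median, the differences were 1.06 for Pgd, 1.07 for G6pdx, 0.86 for Tkt, 0.80 for H6pd, 0.56 for Pgls, 0.53 for Taldo1 and -0.33 for Rpe. Since a change of scaling shifts nearly all genes alike, this subtraction returns values near those of the main scale by construction and lends the calls no support. With the size factors of DESeq2 in edgeR, the same 7 members were past the threshold in the same directions.

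**Figure D3:**
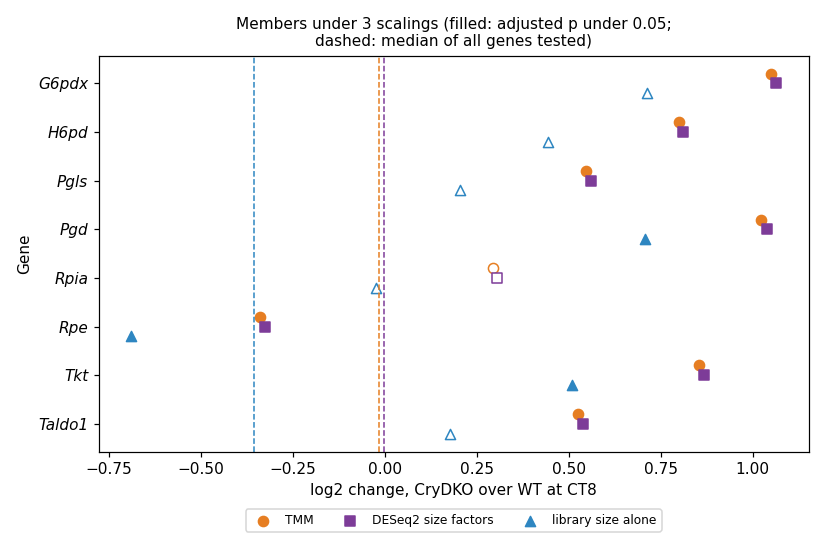
Log2 difference of CryDKO over WT at CT8 for each member under 3 scalings, with dashed lines at the median of all genes tested under each. Library size alone moved that median to -0.36 and the members with it, and kept Pgd, Tkt and Rpe past the threshold.

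Ratios between members within a library do not depend on scaling. The ratio of Tkt to Rpe reads was 3.12 to 3.65 in WT at CT8 and 2.67 to 4.67 in WT at CT16. In CryDKO it was 6.65 to 9.96 at CT8 and 5.39 to 9.82 at CT16, so the lowest CryDKO library was above the highest WT library. The means were 3.34 ± 0.224 and 7.65 ± 1.55 at CT8 and 3.79 ± 0.832 and 7.45 ± 1.89 at CT16 (SD, n = 4). The ratio of Pgd to Rpe also separated the genotypes, from 0.966 to 1.67 in WT and from 1.77 to 5.07 in CryDKO. Tkt and Pgd levels were already apart between the genotypes and Rpe was called lower at CT8. Separation of their ratios thus follows from those levels and lends them no further support. The bases that Rpe shares with Kansl1l limit these ratios too. The ratios of Rpia to Rpe, Pgd to Taldo1 and H6pd to Pgls overlapped between the genotypes. Tkt to Taldo1 reached 1.06 in WT and started at 1.04 in CryDKO, so a single CryDKO library fell within the WT range. The cytosolic to ER dehydrogenase ratio, G6pdx to H6pd, was small throughout and mixed, from 0.00362 to 0.00849 in WT and from 0.00495 to 0.0247 in CryDKO.

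**Figure D4:**
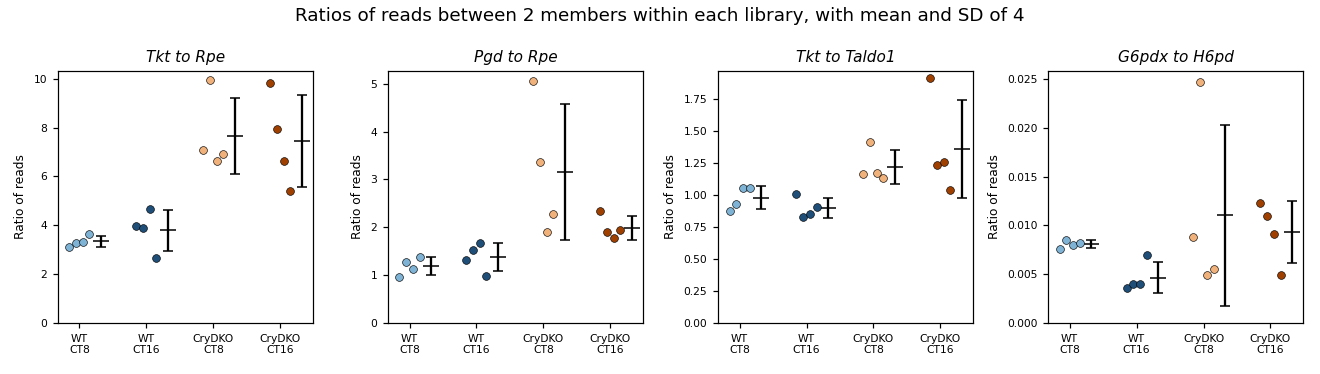
Ratio of reads between 2 members within each library, with the mean and SD of 4 libraries. Tkt to Rpe did not overlap between WT (at most 4.67) and CryDKO (at least 5.39), while G6pdx to H6pd overlapped.

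At CT16, 3 of the 8 members were higher in CryDKO and 0 were lower. Higher calls made up 9% of all genes tested at that time and lower calls 9.15%. The 3 were G6pdx, Pgls and Tkt, and these were also the members called higher at both times, as were 6.16% of all genes. The members' median log2 difference was 0.42, against -0.01 over all genes tested. At an unadjusted p under 0.05 the count was 4 of 8, with Pgd added, against 32.8% of all genes.

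Tkt read 60.4, 73.5, 98.8 and 104 CPM in WT at CT16 and 111, 156, 161 and 189 CPM in CryDKO, without overlap. Its log2 difference was 0.87 ± 0.19 (adjusted p = 0.00416), and 0.73 (adjusted p = 0.0157) without WT at CT16 library 8. G6pdx read 1.58, 1.73, 1.92 and 2.19 CPM in WT and 2.10, 4.51, 5.62 and 6.58 CPM in CryDKO. Library 14 was within the WT range and the other 3 were above it. The log2 difference was 1.34 ± 0.35 (adjusted p = 0.0116), or 2.53-fold, and it was 1.34 (adjusted p = 0.0275) without library 8. Library 14 also had the lowest stellate cell and fibroblast sum of its group, 44.8 CPM against 96.0 to 138 CPM in the others, and that list's part was not tested. At CT16, 2 of the 9 macrophage markers, Csf1r and Marco, were called higher in CryDKO, with sums of 23.9 to 106 CPM in WT and 84.3 to 166 CPM in CryDKO. Alb and Fgb of the hepatocyte list, Col1a2, Krt19, Stab2 and Hbb-bs (at most 15 reads) were also higher at CT16, and Sox9 of the cholangiocyte list was lower. The hepatocyte list's median log2 difference was 0.25 at CT16, against 0.42 for the members. The part of these markers in the G6pdx, Pgls and Tkt differences was not tested.

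Pgls read 51.4, 56.8, 74.0 and 75.3 CPM in WT at CT16 and 82.7, 87.1, 95.7 and 109.5 CPM in CryDKO. Its log2 difference of 0.54 ± 0.15 (adjusted p = 0.0167) was nearly that at CT8. The call was lost without WT at CT16 library 8 (0.44, adjusted p = 0.0698), without CryDKO at CT16 library 14 (0.46, adjusted p = 0.0510) and when only the 2 groups were fitted (0.53, adjusted p = 0.0524). Pgd read 22.5, 29.0, 33.0 and 37.2 CPM in WT and 38.3, 40.0, 41.5 and 45.0 CPM in CryDKO. The groups did not overlap, as higher groups did not in 9.65% of all genes, but the log2 difference of 0.44 ± 0.20 did not pass (adjusted p = 0.133).

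The others did not pass at CT16. H6pd read 275, 392, 431 and 604 CPM in WT and 423, 497, 511 and 535 CPM in CryDKO, with a log2 difference of 0.21 ± 0.21 (adjusted p = 0.510) and a 95% interval from -0.22 to 0.64. The highest of all 16 H6pd values was thus a WT library at CT16. Taldo1 read 66.7, 88.8, 98.2 and 122 CPM in WT and 98.8, 107, 124 and 131 CPM in CryDKO (0.29 ± 0.16, adjusted p = 0.212). In both genes the lowest WT value was library 8. Rpia read 2.75 to 4.01 CPM in WT and 2.82 to 6.10 CPM in CryDKO, and Rpe read 19.0 to 25.0 CPM and 19.3 to 23.4 CPM. Their log2 differences were 0.40 ± 0.30 (adjusted p = 0.374) and -0.09 ± 0.12 (adjusted p = 0.642), and both pairs of groups overlapped.

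Dosing time was compared within each genotype, which holds the genotype fixed but shares its libraries with the comparisons above. In WT, 0 of the 8 members differed between CT16 and CT8 (367 genes, 2.53% of those tested, did in edgeR). At an unadjusted p under 0.05 there was 1 member, H6pd, against 26.4% of all genes. H6pd was 0.61 ± 0.21 higher at CT16 on the log2 scale (adjusted p = 0.0833), and DESeq2 called it (adjusted p = 0.0345). The count of genes called hung on single WT libraries. It was 3580 without WT at CT16 library 8 and 0 to 92 on leaving out any other WT library. Without library 8, H6pd (0.81, adjusted p = 0.00719) and Taldo1 (0.50, adjusted p = 0.0195) were among the genes called higher at CT16. In the fit of all libraries Taldo1 differed by 0.33, Pgd by 0.22, Tkt by 0.20, Pgls by 0.12, Rpe by 0.02, Rpia by -0.04 and G6pdx by -0.29 on the log2 scale. For H6pd, library 8 read 275 CPM, within the 251 to 317 CPM of WT at CT8, while the other 3 libraries read 392 to 604 CPM. The members' sum, of which H6pd held 54.0% to 65.6% in WT at CT16, was 503 CPM in library 8. The median of that group was 740 CPM, and WT at CT8 had 523 to 571 CPM. With library size alone the sum was 604 CPM in library 8 and 632 CPM in library 6. Both were within the 592 to 696 CPM of WT at CT8. H6pd in these libraries was then 330 and 364 CPM, within the 289 to 387 CPM of WT at CT8. So the split depended on the scaling. Macrophage markers summed to 106 CPM in library 8 and to 23.9 to 51.9 CPM in the other 3. In library 8, sums were also the highest of the group for stellate cells and fibroblasts (145 against 62.7 to 82.4 CPM) and endothelium (66.6 against 24.8 to 43.5 CPM). So was that for neutrophils (4.46 against 1.20 to 2.77 CPM). Its hepatocyte sum (57771 against 83624 to 94296 CPM) and erythroid sum (28.3 against 37.8 to 50.6 CPM) were the lowest. The part of these lists was not tested.

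In CryDKO, 0 of the 8 members differed between CT16 and CT8, as did 0 of all 14484 genes, or 0%. DESeq2 called 13 genes, voom 0 and limma trend 1, none of them a member, and 938 genes (6.48%) had an unadjusted p under 0.05 in edgeR. The member among those was Rpe, 0.27 ± 0.12 higher at CT16 (adjusted p = 0.769). The largest difference was that of Pgd, -0.36 ± 0.20 on the log2 scale (adjusted p = 0.787), with a 95% interval from -0.78 to 0.05. Tkt differed by 0.22 ± 0.19, Pgls by 0.12, Taldo1 by 0.09, Rpia by 0.07, H6pd by 0.02 and G6pdx by 0.01. The 95% interval of G6pdx was wide, from -0.69 to 0.70, and that of H6pd ran from -0.41 to 0.45.

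The interaction asked whether the genotype difference changed with dosing time. It was past the threshold for 0 of the 8 members and for 6 genes in all, 0.0414% of those tested, with 0 members and 1927 genes (13.3%) at an unadjusted p under 0.05. DESeq2 called 135 genes and no member. The nearest members were Pgd and H6pd, whose CryDKO over WT difference was smaller at CT16 than at CT8 by -0.58 ± 0.28 (adjusted p = 0.376) and -0.59 ± 0.29 (adjusted p = 0.386). For Tkt the interaction was 0.02 ± 0.27, with a 95% interval from -0.54 to 0.58. It was 0.29 for G6pdx, 0.25 for Rpe, 0.11 for Rpia, -0.24 for Taldo1 and -0.0038 for Pgls. So the loss of the H6pd, Pgd, Taldo1 and Rpe calls at CT16 was not shown to be a difference between the times.

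**Figure D5:**
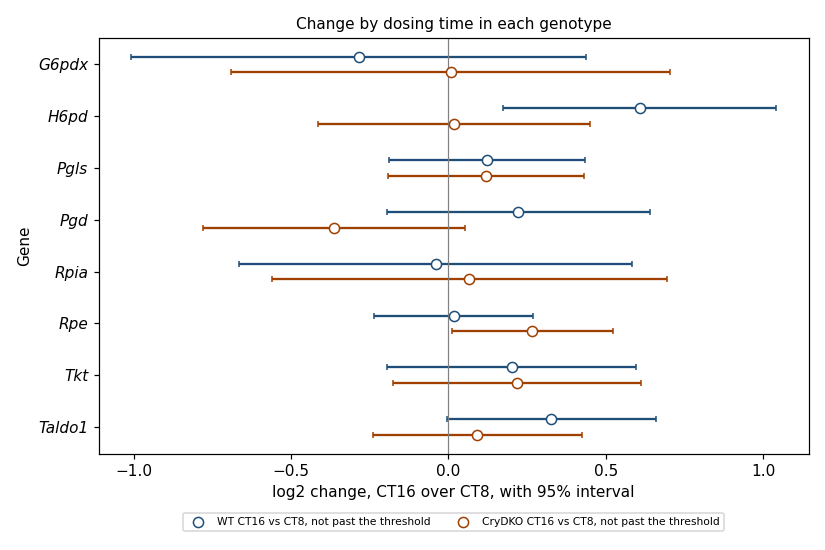
Log2 difference of CT16 over CT8 for each member within WT and within CryDKO, with its 95% interval. No member passed the adjusted threshold in either genotype, and the H6pd interval in WT ran from 0.17 to 1.04.

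Over both times, all 8 CryDKO libraries lay above all 8 WT libraries for Pgls, Pgd and Tkt, as they did for 3.58% of all genes. The lowest, median and highest CPM of Tkt were 60.4, 74.3 and 104 in WT and 109, 145 and 189 in CryDKO. For Pgd they were 21.2, 28.5 and 37.2 in WT and 37.3, 40.7 and 77.7 in CryDKO, so the groups nearly touched. For Pgls they were 51.0, 61.0 and 75.3 in WT and 77.8, 87.4 and 109.5 in CryDKO.

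Neighbouring steps were counted from lists chosen for their link to the pathway. Their counts at CT8 stand against 18.7% of all genes called higher and 20.3% called lower, and at CT16 against 9% and 9.15%. Among 12 genes of glucose 6-phosphate supply and the shared glycolytic steps, 6 were higher in CryDKO at CT8 and 0 lower, with a list median of 0.38 on the log2 scale against -0.02 over all genes. Over left-out libraries the count of higher genes was 4 to 6. Pfkl, the liver phosphofructokinase, stood at 31.9 ± 1.97 CPM in WT and 79.2 ± 9.55 CPM in CryDKO (1.31 ± 0.17, adjusted p = 2.65e-05). The glycolytic enzymes Gapdh (1.25) and Tpi1 (0.97) were also higher. At CT16 the list held 1 higher gene, Pfkl (0.63 ± 0.16, adjusted p = 0.0118), and 0 lower. In WT, Pfkl was higher at CT16 than at CT8 (0.65 ± 0.16, adjusted p = 0.0441). It was the list's 1 call, where 2.53% of all genes were called, with 0 to 6 calls over left-out libraries. The Pfkl call was lost with limma trend (adjusted p = 0.0506) and with library size alone (adjusted p = 0.137). It was also lost without any of WT at CT8 libraries 1, 2, 3 and 4, WT at CT16 libraries 5, 6 and 7 or CryDKO at CT16 library 13 (adjusted p of 0.0520 to 0.165). Among 8 genes of ribose phosphate use and sugar kinases, 1 was higher and 2 lower at CT8, shares near those of all genes, so the counts say nothing particular of the list. Over settings other than leaving out a library, 0 to 1 were higher and 1 to 5 lower. Prps1, a synthetase of the nucleotide precursor PRPP, was higher (0.53), and the gluconate kinase Idnk (-0.57) and the PRPP synthetase-associated Prpsap2 (-0.49) were lower. Prpsap2 lost its call without any of WT at CT8 libraries 1, 2, 3 and 4 or CryDKO at CT8 libraries 10 and 15 (adjusted p up to 0.106). At CT16, 1 of the 8 was lower, Prps2 (-0.47, adjusted p = 0.0327), with 0 to 2 lower over left-out libraries.

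Of 11 tested genes of other NADPH sources, 5 were higher at CT8 and 1 lower, where 18.7% and 20.3% of all genes were. Mitochondrial isocitrate dehydrogenase Idh2 stood at 85.5 ± 7.18 CPM in WT and 177 ± 18.9 CPM in CryDKO (1.05 ± 0.18, adjusted p = 0.000242), and the folate enzyme Mthfd1 was 0.87 higher. Malic enzyme Me1 went the other way, from 96.4 ± 10.8 to 54.8 ± 7.56 CPM (-0.82 ± 0.21, adjusted p = 0.00594). Over left-out libraries this list held 3 to 6 higher genes at CT8 and 1 lower. Me1 was also its 1 call at CT16 (-0.68, adjusted p = 0.0327), lost without WT at CT16 library 5 or 7 or CryDKO at CT16 library 12 or 14 (adjusted p up to 0.0950). Of 9 reductases that use NADPH, 3 were higher at CT8 (Gsr, Nqo1 and Por). That count was 2 to 4 over left-out libraries and 0 to 4 over other settings. Por lost its call without WT at CT8 library 1, 2 or 4 or CryDKO at CT8 library 15 or 16 (adjusted p of 0.0530 to 0.0951). Of 6 lipogenic genes, 1 was higher at CT8, the acetyl-CoA carboxylase Acaca (0.86 ± 0.24, adjusted p = 0.00961), a share below that of all genes. The count was 1 to 2 over left-out libraries and 0 to 3 over other settings, and 0 passed at CT16. At CT16 Hsd11b1 was again higher (1.00 ± 0.18, adjusted p = 0.000909), 1 of the 3 ER partners.

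Nfe2l2, the gene of NRF2, was lower in CryDKO at both times. It stood at 141 ± 6.95 CPM in WT and 57.9 ± 11.5 CPM in CryDKO at CT8 (-1.28 ± 0.17, adjusted p = 3.74e-05), and at 94.3 ± 12.2 and 50.5 ± 11.7 CPM at CT16 (-0.90 ± 0.17, adjusted p = 0.00128). Keap1, whose product marks NRF2 for degradation, was 0.97 ± 0.14 higher at CT8 (adjusted p = 5.77e-05). Of 8 tested NRF2 targets outside the pathway, 4 were higher at CT8 (Gsr, Hmox1, Nqo1 and Srxn1) and 1 at CT16 (Hmox1, 1.23), with 0 lower at either time. Over left-out libraries the count of higher targets was 3 to 5 at CT8 and 0 to 1 at CT16. Srxn1 reached 389.9 CPM in 1 CryDKO library at CT8, while the group's median was 37.7 CPM. Its call was lost with voom, limma trend and only the groups fitted (adjusted p of 0.0930 to 0.0971) and without WT at CT8 library 2 or 4. The Hmox1 call at CT16 was lost with voom, with library size alone, without the low count filter and without 12 of the libraries in turn (adjusted p up to 0.130). Mlxipl, the carbohydrate response factor, was lower in CryDKO at CT8 (-1.21 ± 0.29, adjusted p = 0.00331) and in WT at CT16 against CT8 (-1.19 ± 0.29, adjusted p = 0.0432). The latter call was lost without any of WT at CT8 libraries 1, 2, 3 and 4, WT at CT16 libraries 5, 6 and 7 or CryDKO at CT16 library 13 (adjusted p of 0.0520 to 0.155). Srebf1, a lipogenic regulator, did not pass at CT8 (0.71 ± 0.33, adjusted p = 0.0952) or CT16 (0.42 ± 0.33, adjusted p = 0.387). Of the list genes named here as higher at CT8, with library size alone Slc37a4, Gsr, Nqo1, Por, Acaca and Prps1 were not past the threshold at CT8. NRF2 protein and its activity were not measured.

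Patterns over the 16 libraries were compared by the root mean squared difference of centred log2 CPM, a distance at which 0 is an identical pattern, among 10245 genes. Among members, Pgls and Taldo1 were nearest each other (0.224) and G6pdx and Rpe farthest apart (0.795). The distance is not scaled to a gene's own spread, so genes that vary little get small values. The SD of log2 CPM was 0.190 for Rpe and 0.718 for G6pdx. The median distance to all genes was 0.367 for Rpe, 0.400 for Taldo1, 0.423 for Pgls, 0.485 for H6pd, 0.530 for Pgd and 0.740 for G6pdx. Nearest to Tkt were Map3k11 (0.174) and Agpat2 (0.176), where the median over all genes was 0.560. Nearest to Pgd were Slc3a2 and Tuba1c (both 0.188), and nearest to H6pd were Epas1 (0.150) and Slc2a8 (0.152). Nearest to Pgls were Rbp4 (0.0938) and Gfer (0.0956), to Taldo1 Pja1 (0.115) and Ergic3 (0.118), and to Rpe Necap1 (0.0950) and Zbtb14 (0.113). The G6pdx pattern, which rested on few reads, had Igfbp7 (0.309) and Pcolce (0.342) nearest.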

How the data were processed

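Poly(A)-selected liver RNA was sequenced as 150 bp read pairs, per the labels. Per the submitters' processing notes, FastQC, Trimmomatic 0.35, STAR 2.5.3, HTSeq 1.99.2 and DESeq2 were used with the mouse build GRCm39 (mm39). Neither the gene annotation nor the strand setting is given in these sources. The main deposited table holds raw counts of reads per gene symbol. The authors also deposited a normalized signal, which from its values is the counts divided by a size factor for each library, and it was used only in an alternative. In that table the 4 columns of CryDKO at CT8 are numbered differently from the count table, within their group. Column numbers run over the series and are not replicate numbers.

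Raw counts were fitted with edgeR 4.0.16 in R 4.3.3 (filterByExpr, TMM scaling, robust quasi-likelihood fit of all 16 libraries, 1 coefficient per group). Tests were two-sided, with Benjamini-Hochberg adjustment over all 14484 genes in each of 5 comparisons and a threshold of 0.05. An SE is the size of the log2 difference over the square root of F. Within groups, chi-square per degree of freedom between libraries was 20.2 to 136, so no library was a copy of another, and the model took this spread into its errors. Procedures were tested on simulated data. Exon lengths and overlaps came from GENCODE vM21 (GRCm38) by symbol, and promoter sequences from RefSeq. Figures used Python 3.11.15 and matplotlib 3.10.9.

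All 8 members are named in every comparison, with up to 3 genes of lowest adjusted p per other list, 3 regulators always (Nfe2l2, Srebf1 and Mlxipl), and the 2 tested genes nearest in pattern to each member called among genes whose mean log2 CPM is 1 or more. Some genes that meet this rule, and the lower calls of the reductase list, are not reported here. Ikbkg, Kansl1l, Niban3 and the marker genes named were chosen after their values were seen. Members and lists were chosen with earlier results of these data known. Alternatives were DESeq2 1.42.0, limma 3.58.1 (voom, and trend on log2 of the normalized signal plus 1), other scalings, other filters, no robust option, only the groups compared, and each library left out.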

Additional observations from a re-analysis of the deposited data

Results flagged for a closer look

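The G6pdx level of CryDKO at CT8 library 10, 8.72 CPM, stood far from the other 3 libraries of its group. The nearest of them was 3.88 CPM, and that gap made up 0.836 of the group's range, above Dixon's critical value at the 95% level for 4 samples. It was the 1 such value among 32 sets of 4 libraries (8 members in 4 groups), and chance gives about 1 in 20.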

How the results depend on the processing

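No paired analysis was possible because the columns carry no replicate number. Other than leaving out a library, alternatives gave 326 member values with the same direction and side of the threshold, 6 that lost a call, 1 that gained one and 19 that changed sign, none of them a call. Genes called by time in WT numbered 1541 with DESeq2, 1006 with voom, 663 without the low count filter, 712 with only the groups, and 0 to 3580 over left-out libraries; members called there numbered 1 with DESeq2 and 0 to 2 over left-out libraries. By time in CryDKO the genes were 13 with DESeq2, 1 with limma trend, 2 without the filter and 0 to 3 over left-out libraries. For the interaction they were 135 with DESeq2, 1 with voom, 0 with library size alone, 30 without the filter, 1 with a mean of at least 50 reads and 0 to 568 over left-out libraries. Members called by genotype at CT8 fell to 3 with library size alone, which shifts the median of all genes to -0.36 at CT8, -0.16 at CT16 and -0.29 by time in WT, where higher calls were 15.8%, 24.3% and 4.84% of calls.

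Uncalled members changed sign as follows. By time in WT, Rpia was 0.0018 with voom, 0.010 with limma trend and 0.011 without the filter; with library size alone Pgls was -0.138, Pgd -0.0487, Rpe -0.231 and Tkt -0.0725; Rpe was -0.0363 at a mean of 50 reads. By time in CryDKO, G6pdx was -0.0346 with library size alone, -0.0150 at a mean of 50 reads and -0.00482 with only the groups, H6pd was -0.0230 and -0.00136 in the first 2 of these, and Rpia was -0.0389 with library size alone. At CT8, Rpia was -0.0245 with library size alone. In the interaction, Tkt was -0.00351 with DESeq2 and -0.0398 without the filter, and Pgls was 0.196 with library size alone and 0.0301 at a mean of 50 reads. Over left-out libraries, G6pdx ranged from -0.194 to 0.502, H6pd from -0.109 to 0.129 and Rpia from -0.164 to 0.238 by time in CryDKO. Rpe ranged from -0.0385 to 0.0917 and Rpia from -0.153 to 0.185 by time in WT. In the interaction, Pgls ranged from -0.134 to 0.0740, Rpia from -0.132 to 0.252 and Tkt from -0.152 to 0.162. The cause was not tested for any of these. Depth limits G6pdx and Rpia most.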
